A study of Mus musculus with 12 samples.

Results

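The small nucleolar RNAs (snoRNAs) and small Cajal body RNAs (scaRNAs) of mouse epiblast-like cells (EpiLCs) were examined in the presence and absence of intact KDM5C. Members were every gene of both deposited tables whose symbol begins with Snora, Snord or Scarna followed by a digit, which selected 114 of 22911 genes. They comprised 36 Snora genes (H/ACA box snoRNAs), 69 Snord genes (C/D box snoRNAs) and 9 Scarna genes. RNA-Seq covered 12 libraries, 3 for each of 4 genotypes. Female Kdm5c fl/fl (fWT) and male Kdm5c flY (mWT) EpiLCs were the controls, and female Kdm5c Δ/Δ (fKO) and male Kdm5c ΔY (mKO) EpiLCs were the knockouts. Kdm5c, named Smcx in the sample labels, is an X-linked gene for a histone H3 lysine 4 demethylase. The floxed allele is shared by both control genotypes, and the Δ allele lacks exons 11 and 12, which encode part of the demethylase domain. All cells were labelled C57BL/6J, were derived from embryonic stem cells and had been kept for 48 h in FGF2 and Activin A. The authors describe the floxed Kdm5c mouse strain as one of mixed background. The RNA was depleted of ribosomal RNA rather than selected by poly(A) tail, so transcripts without a tail, such as snoRNAs, could be sequenced.

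Both classes of snoRNA act as guides. A C/D box snoRNA, bound by fibrillarin and its partners, base-pairs with ribosomal RNA and directs methylation of a ribose, whereas an H/ACA box snoRNA, bound by dyskerin and its partners, directs the change of a uridine to pseudouridine. The scaRNAs carry the same boxes, reside in Cajal bodies and guide modification of spliceosomal RNAs. In mammals most of these RNAs are cut out of the introns of host genes, many of which encode ribosomal proteins or translation factors, so that host RNA and guide RNA start from one transcript but are matured and degraded separately.

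The sequences below are those of 9 guide RNAs on which the results turn, including pairs from one host gene that differed in their response. They are shown 5′ to 3′ as DNA on the mm9 genome over the span that GENCODE vM1 gives. Capitals mark box motifs. In the Snord sequences these are the C box (TGATGA, within the first 25 bases) and the D box (CTGA, within the last 25 bases). In the Snora sequences they are the H box (ANANNA, where N is any base, in the middle) and the ACA box (ACA, within the last 25 bases). The last ACA was marked. In Snora41 it overlaps an earlier ACA, which lies as far from the end as the mark in the other Snora sequences. Which of them is the box of Snora41 was not tested. Only the RNA strand was searched.
Snord15a: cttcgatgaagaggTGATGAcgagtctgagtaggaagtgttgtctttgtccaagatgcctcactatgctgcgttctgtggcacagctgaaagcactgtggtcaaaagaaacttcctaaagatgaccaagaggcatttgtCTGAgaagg
Snord15b: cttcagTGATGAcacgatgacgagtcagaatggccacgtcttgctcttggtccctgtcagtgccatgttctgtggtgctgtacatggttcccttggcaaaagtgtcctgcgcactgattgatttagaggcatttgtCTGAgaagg
Snord82: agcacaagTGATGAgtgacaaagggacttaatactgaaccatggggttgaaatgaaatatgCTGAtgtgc
Snora75: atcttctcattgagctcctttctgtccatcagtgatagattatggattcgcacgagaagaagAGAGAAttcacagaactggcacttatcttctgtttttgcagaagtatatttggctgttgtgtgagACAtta
Snora64: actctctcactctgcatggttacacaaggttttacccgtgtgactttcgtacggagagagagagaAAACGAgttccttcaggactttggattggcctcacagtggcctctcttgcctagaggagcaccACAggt
Snora78: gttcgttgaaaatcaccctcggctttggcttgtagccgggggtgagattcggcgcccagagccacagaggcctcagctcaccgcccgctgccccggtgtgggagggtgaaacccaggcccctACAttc
Snora41: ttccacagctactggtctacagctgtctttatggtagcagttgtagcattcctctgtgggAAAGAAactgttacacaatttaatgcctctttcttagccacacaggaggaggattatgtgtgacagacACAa
Snord19: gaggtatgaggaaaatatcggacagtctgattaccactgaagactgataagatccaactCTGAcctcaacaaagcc
Snord69: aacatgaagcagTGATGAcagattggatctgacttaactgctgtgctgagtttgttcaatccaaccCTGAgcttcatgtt

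Snord15a (chr7:106631295-106631442 on the minus strand) and Snord15b (chr7:106628073-106628217 on the minus strand) lie within Rps3, a gene for a ribosomal protein of the small subunit, where the annotation puts Snord15a in an intron and Snord15b in an exon. Snord82 (chr1:88252836-88252905 on the minus strand) and Snora75 (chr1:88247744-88247876 on the minus strand) lie in introns of Ncl, which encodes nucleolin. Snora64 (chr17:24857717-24857850 on the plus strand) lies in an exon of Rps2, whose own deposited means are far higher, and Snora78 (chr17:24856621-24856748 on the minus strand) in an intron of Snhg9, a neighbouring non-coding host gene on the opposite strand. Snora41 (chr1:63225578-63225709 on the plus strand) lies in an intron of Eef1b2, a translation elongation factor gene. Snord19 (chr14:31829392-31829467 on the minus strand) and Snord69 (chr14:31827473-31827552 on the minus strand) lie in introns of Gnl3, which encodes the nucleolar GTPase nucleostemin. Over an alignment of 162 positions, Snord15a and Snord15b were identical at 107 (66.0%), and Snord19 and Snord69 were identical at 50 of 90 positions (55.6%). No H box match lay in the searched middle stretch of Snora78 and no C box match at the start of Snord19, which says only that these letters are not in those windows.

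Among the members that could be placed on mm9 by symbol (97 of 114), the D box motif was present in 56 of 56 Snord spans and the C box motif in 34 of 56 (60.7%). In windows of the same length directly upstream, the D box motif was found in 14.3% and the C box motif in none. The ACA motif was present near the end of 30 of 32 Snora spans, against 15.6% of upstream windows, and the H box motif in 29 of 32, against 31.2%. In the other class the D box motif was found in 4 of 32 Snora spans, the ACA motif in 19 of 56 Snord spans and the H box motif in 26 of 56 Snord spans (46.4%). The scaRNAs were mixed, with both C and D motifs in 4 of 9 and the ACA motif in 8 of 9, while the H box motif was in 6 of 9 spans and in 6 of 9 upstream windows. Placed spans had a median length of 78.5 bases for Snord, 132.5 for Snora and 140.0 for Scarna. The annotation put 59 members in an intron of a gene on the same strand, 26 in an exon, 5 across both and 7 in no gene on that strand. A host gene listed in the tables was found for 89 members. Where a member lies in a host exon, or shares its sequence with another locus, how reads were assigned is not given in the sources used here, and these values are less certain. Every 50-base window was unique in mm9 for 87 of the 97 placed members. The lowest share was that of Snord1c (11.1%), followed by Scarna17 (30.0%), Snora65 (58.0%), Snora81 (61.2%) and Snora41 (65.1%).

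The deposited tables give only the mean normalized count of each genotype, the reads of a gene after division by a factor for library size, averaged over the 3 libraries. The whole reads behind the means were recovered for all 114 members in all 12 libraries. The libraries carry no names once recovered and are called A, B and C within a genotype in falling order of size factor. Between 5354215 and 10863314 reads were recovered per library, and the members received between 0.345% and 0.766% of them. Genes with a mean above 10000 could not be searched and are missing from these totals, which hold 86.0% to 91.4% of the normalized counts of a genotype. Reads that are PCR copies are not independent, so any limit drawn from counts covers counting error only. Libraries mWT B and mKO A stood apart from the other libraries of their genotypes, with a median absolute log2 difference of 0.22 to 0.26 over 9701 genes against 0.086 to 0.099 within the remaining pairs. Libraries mWT A and mWT C had reads on 20773 and 20368 genes, against 17163 to 17731 in the other 10. The labels give 3 samples per genotype from independent stem cell lines.

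Kdm5c itself was lower in every knockout library than in every control library of the same sex. Its normalized count was 2336, 2429 and 2315 in fWT A to C and 1406, 1447 and 1505 in fKO A to C, a fall that passed the test (log2 fold change -0.70, SE 0.054, adjusted p = 4.53e-09, limma with Benjamini-Hochberg adjustment over all genes). In males it was 2195, 2110.1 and 2371 in mWT and 1897, 1943 and 1976 in mKO, a difference that did not pass the threshold (log2 fold change -0.20, SE 0.10, adjusted p = 0.271). The count covers the whole gene and so includes exons that the Δ allele keeps.

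Levels ranged over several orders of magnitude. Averaged over the 4 genotypes, 9 members had a mean normalized count of at least 1000, 56 of at least 100 and 95 of at least 10. A read was present in every library for 103 members. The most abundant Snord genes were Snord15b (6283), Snord83b (1929), Snord22 (1838), Snord17 (1672) and Snord68 (1320.3). Snord22, known as U22, is required for processing of the 18S ribosomal RNA rather than acting as a methylation guide. Among Snora genes, Snora44 (5272) and Snora78 (1943) exceeded Snora70 (734), Snora81 (609) and Snora17 (566). Scarna13 (875), Scarna6 (444) and Scarna9 (170.1) stood above Scarna8 (28.6) and Scarna3a (19.3).

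**Figure D1:**
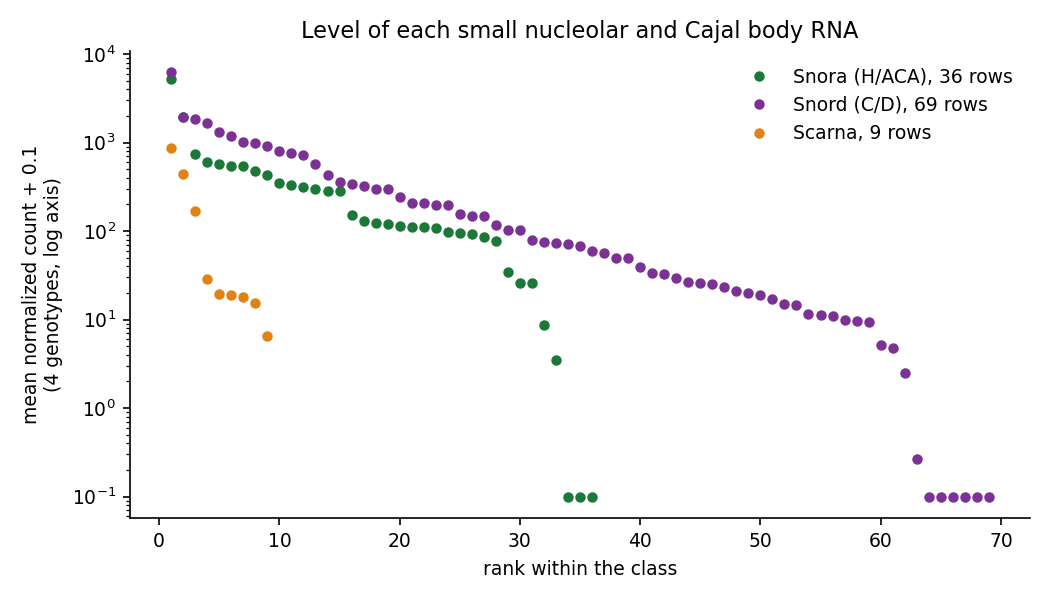
Mean normalized count over the 4 genotypes plus 0.1 (log axis) for each of the 114 members, ordered by rank within its class. Each point is one gene, of which 3 Snora and 6 Snord genes at the bottom had no read in any library, and the 9 Scarna genes run from 875 down to 6.37 (Scarna3b).

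Expressed per 100 bases of annotated length, the median mean normalized count was 107 for placed Snora genes, 92.3 for Snord genes and 21.9 for Scarna genes. On this scale the highest members were Snord15b (4333 per 100 bases), Snora44 (4087) and Snord83b (2052). Guides from one host differed widely. Within Rps3, Snord15b stood at 4333 per 100 bases and Snord15a at 294. Within Snhg12, Snora44 stood at 4087, Snora16a at 403, Snora61 at 72.0 and Snord99 at 67.0. Annotated spans were used here because the annotation behind the deposited counts is not given in the sources used here.

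No read was recovered in any library for 9 members, namely Snora24, Snora26, Snora35, Snord1a, Snord7, Snord45c, Snord116, Snord116l1 and Snord116l2. A count of 0 in one library allows up to 3 reads, which is a normalized count of 2.35 to 4.31 depending on the library. Several of these are known as brain transcripts. Snora35 lies in an intron of the serotonin receptor gene Htr2c, and the Snord116 genes belong to an imprinted cluster of repeated copies that is paternally expressed in brain, where reads kept only when uniquely mapped can miss near-identical copies. Snord1a and Snord45c had detected neighbours. Snord1a was at 0 although Snord1b and Snord1c, annotated to the same host gene (1810032O08Rik), had mean normalized counts of 962 and 853 in fWT. Snord45c was at 0 while Snord45b, from the Rabggtb gene, had 20.2. Snord123 had a mean of 0.671 in fWT from library A alone and was listed at 0 in the other genotypes.

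Many of these RNAs were high or low together in single libraries. Over the 103 members with a read in every library, the median deviation of a member from its own mean over 12 libraries (log2 scale) was 0.58 in fKO C and 0.67 in mWT C, and -0.56 in mKO A and -0.45 in mWT B. In fKO C, 95 of the 103 members lay above their own mean, and in mKO A 10 did. The median over all genes with a mean of at least 10 lay between -0.015 and 0.015 in every library on the same scale. Libraries of one genotype lay on either side of 0, since mWT A, B and C had member medians of -0.13, -0.45 and 0.67. In this bulk RNA, fewer cells of a type and less RNA per cell cannot be told apart.

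**Figure D2:**
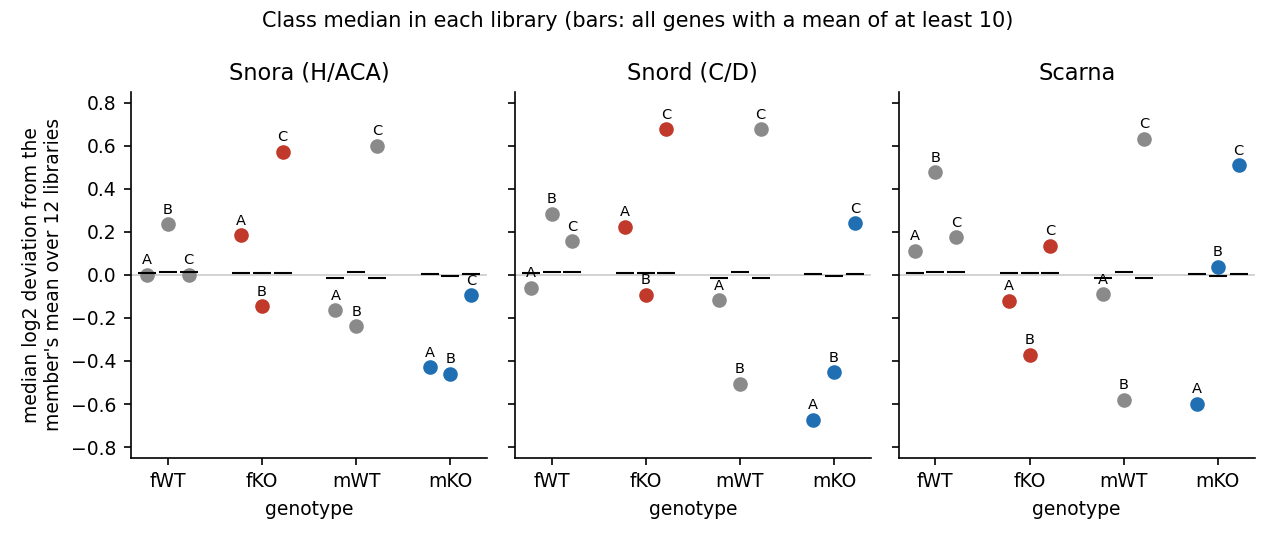
Median log2 deviation of the members of each class from their own mean over 12 libraries (vertical axis), by genotype (horizontal axis) and library (letters). Black bars give the median of all genes with a mean of at least 10. Snora (33 members) and Snord (61 members) moved together between libraries, with fKO C and mWT C highest and mKO A and B among the lowest, and the 9 Scarna members followed less closely.

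This spread was set beside that of all genes of like abundance. For genes with a mean of 100 to 1000, the median SD of log2(normalized count + 1) over the 3 libraries of a genotype was 0.191 for members and 0.0866 for all genes in fWT, 0.375 and 0.0881 in fKO, 0.681 and 0.158 in mWT, and 0.446 and 0.177 in mKO. Between 39 and 50 members fell in this range. The median member SD was thus higher than the median of all genes in each of the 4 genotypes. No test was made of this difference, since members share their libraries.

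Summed over a class, the normalized counts did not separate knockout from control. The 36 Snora genes summed to 17159 ± 5550.2 in fWT and 15346 ± 4803 in fKO (SD, n = 3, exact permutation test, two-sided, p = 0.6). The 69 Snord genes summed to 26311 ± 4049 and 28138 ± 8176 (exact permutation p = 0.9). The 9 Scarna genes summed to 1799.6 ± 142 and 1549.9 ± 235 (exact permutation p = 0.3). In males the sums of mKO were 0.86, 0.84 and 0.84 of those of mWT for Snora, Snord and Scarna, with exact permutation p of 0.6, 0.7 and 0.2. With 3 libraries against 3, this test cannot go below 0.10, and across the 3 classes and both sexes no sum reached that value.

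In females, single members changed in both directions. Of 105 members tested, 19 rose and 12 fell in fKO (limma, adjusted p under 0.05). Over all 19572 genes tested, 25.4% rose and 24.7% fell, 50.1% in all, so a smaller share of the members (29.5%) than of all genes was called. Libraries did not overlap between fWT and fKO for 16 members that were higher and 7 that were lower, where 27.6% and 27.2% of all genes did so. By class, 6 of 33 Snora genes rose and 4 fell, 13 of 63 Snord genes rose and 5 fell, and 3 of 9 Scarna genes fell while none rose. The median log2 fold change was 0.10 for Snora, 0.13 for Snord and -0.37 for Scarna, beside 0.0037 over all genes. Centring the libraries on the members instead, which moved the median of genes with a mean of at least 10 from 0.0019 to -0.092, left 3 higher and 5 lower, beside 9.13% and 14.1% of all genes. The counts also rested on single libraries, with 10 higher and 17 lower without fKO C, 30 higher and 6 lower without fKO B, and 11 higher and 9 lower without fWT A. In these 3 fits 23.1% to 23.3% of all genes were higher and 22.2% to 23.0% lower. With the tables' scaling, the 19 that rose were Snora41, Snord69, Snord45b, Snord19, Snord82, Snord1c, Snord87, Snord1b, Snord58b, Snord96a, Snora15, Snord53, Snord34, Snora62, Snora3, Snord52, Snora34, Snora68 and Snord17, and the 12 that fell were Scarna3b, Snord71, Snord15a, Snord37, Snora64, Scarna17, Snora75, Snord49b, Snord22, Scarna13, Snora78 and Snora16a.

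**Figure D3:**
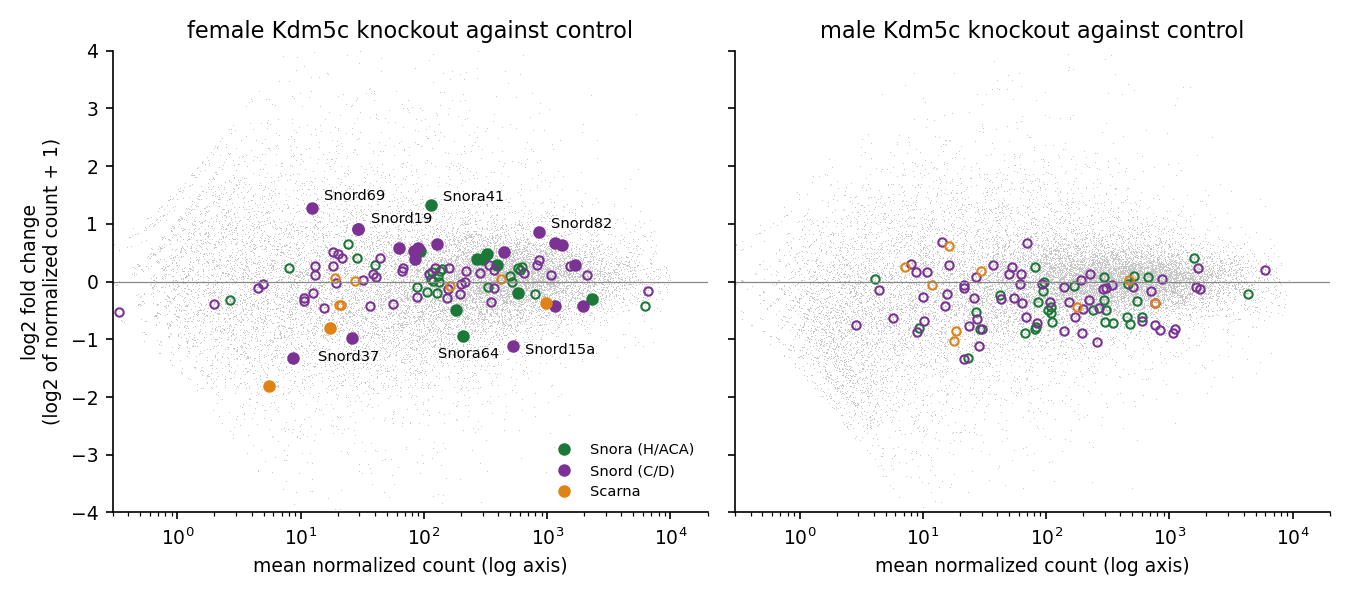
log2 fold change of knockout over control (vertical axis, cut at -4 and 4) against the mean normalized count (horizontal log axis) in females and males. Grey dots are all genes tested and circles are members, coloured by class and filled where the adjusted p was under 0.05. Filled circles lie on both sides of 0 in females (19 above, 12 below), and no circle is filled in males.

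Snord15a, a C/D guide for methylation of the 28S ribosomal RNA, changed with the smallest adjusted p of the members. Its normalized count was 689, 827 and 639 in fWT A to C and 299, 345 and 347 in fKO A to C. In mWT it was 316, 325 and 414 and in mKO 279, 327 and 408. Every fWT library lay above all 9 libraries of the other genotypes, which overlapped one another. The mean fell to 0.46 of control in females (log2 fold change -1.11, SE 0.088, adjusted p = 7.44e-09) and was 0.96 of control in males (log2 fold change -0.063, SE 0.18, adjusted p = 0.831). The change in males minus that in females was 1.05 (SE 0.21, adjusted p = 0.0029), and fWT exceeded mWT (log2 fold change 1.03, SE 0.15, adjusted p = 0.000344).

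Snord15b, its neighbour in Rps3 and the most abundant member, did not pass the test. It stood at 6140.4, 9302 and 5749 in fWT and 5799.8, 5806 and 6919 in fKO, which overlapped (log2 fold change -0.16, SE 0.12, adjusted p = 0.291). Taken as a ratio within each library, which no scaling of the libraries can move, log2 of Snord15a over Snord15b was -3.27 ± 0.19 in fWT and -4.22 ± 0.13 in fKO (SD, n = 3), with no overlap (exact permutation p = 0.1, the smallest possible, adjusted p = 0.16 over 8 such ratios). In males it was -3.96 ± 0.23 and -4.23 ± 0.18, which overlapped (exact permutation p = 0.3). Rps3 had deposited means of 9788 in fWT and 8810.0 in fKO. It was not tested here because a mean over 10000 in mWT left its reads unrecovered. These ratios were chosen after the values of the single members had been seen.

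The guides of the Ncl gene, Snord82 and Snora75, changed in opposite directions in females. Snord82, a C/D RNA, had 532, 662 and 571 in fWT and 895, 854 and 1592 in fKO, so that all fKO libraries were higher (log2 fold change 0.86, SE 0.16, adjusted p = 0.00014). Snora75, an H/ACA RNA also called U23, had 213, 227 and 189 in fWT and 119.9, 143 and 194 in fKO, where the lowest fWT library was below the highest fKO library (log2 fold change -0.48, SE 0.14, adjusted p = 0.00659). The call of Snora75 was lost without fWT A or fKO A (adjusted p up to 0.0629), with no filter on low values (adjusted p = 0.142) and with centring on the members (adjusted p = 0.103). That of Snord82 was lost with no filter (adjusted p = 0.0774). The ratio of Snord82 to Snora75 within a library was higher in fKO, 2.84 ± 0.24 against 1.49 ± 0.15 in fWT on the log2 scale (SD, n = 3), without overlap (exact permutation p = 0.1, adjusted p = 0.16).

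In males, Snord82 had 819, 385 and 1857 in mWT and 448, 397 and 692 in mKO, which overlapped (log2 fold change -0.75, SE 0.46, adjusted p = 0.332). Snora75 had 91.7, 102 and 112 in mWT and 85.2, 41.6 and 51.7 in mKO, which did not overlap but did not pass the test (log2 fold change -0.83, SE 0.28, adjusted p = 0.11). The ratio was 3.04 ± 1.07 in mWT and 3.13 ± 0.68 in mKO (SD, n = 3), which overlapped (exact permutation p = 0.9). Snora75 was higher in fWT than in mWT (log2 fold change 1.03, SE 0.23, adjusted p = 0.0069). Ncl had deposited means of 22069.5 in fWT, 33738 in fKO, 25493 in mWT and 20290.3 in mKO, above the range in which reads were recovered.

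Snora64 fell in females, and in both sexes every knockout library was lower than every control library. It had 299.8, 282 and 236 in fWT and 150.5, 109 and 173 in fKO (log2 fold change -0.93, SE 0.14, adjusted p = 1.5e-05). In males it had 584, 398 and 663 in mWT and 332, 321 and 396 in mKO, with no overlap and an adjusted p above the threshold (log2 fold change -0.62, SE 0.19, adjusted p = 0.0811). Rps2, whose exon holds Snora64, had deposited means of 23074 in fWT, 19490 in fKO, 23381 in mWT and 18493 in mKO. How reads were assigned between the 2 genes was not tested. The level of Snora64 was higher in mWT than in fWT (female minus male controls, log2 fold change -0.98, SE 0.19, adjusted p = 0.0032). Snora78, which lies nearby on the other strand, had the opposite order of the sexes, with 2656, 2791 and 2109 in fWT and 1237, 1294 and 1518 in mWT (log2 fold change 0.89, SE 0.19, adjusted p = 0.00482).

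The host of Snora78, the non-coding gene Snhg9, was also higher in fWT, at 1069, 1266 and 1086 against 328, 438 and 331 in mWT (log2 fold change 1.65, SE 0.16, adjusted p = 1.61e-05). In knockouts Snora78 had 2506, 1753 and 1923 in fKO and 1263, 2142 and 2120.4 in mKO, overlapping with its control in both sexes (log2 fold change -0.30, SE 0.11, adjusted p = 0.029 in females, log2 fold change 0.41, SE 0.20, adjusted p = 0.232 in males). The female call was lost without fWT A, fWT B, fKO B or fKO C (adjusted p up to 0.202). Within a library, log2 of Snora64 over Snora78 was -3.20 ± 0.088 in fWT and -3.85 ± 0.32 in fKO, and -1.33 ± 0.33 in mWT and -2.36 ± 0.41 in mKO (SD, n = 3), lower without overlap in the knockout of either sex (exact permutation p = 0.1 each, adjusted p = 0.16).

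**Figure D4:**
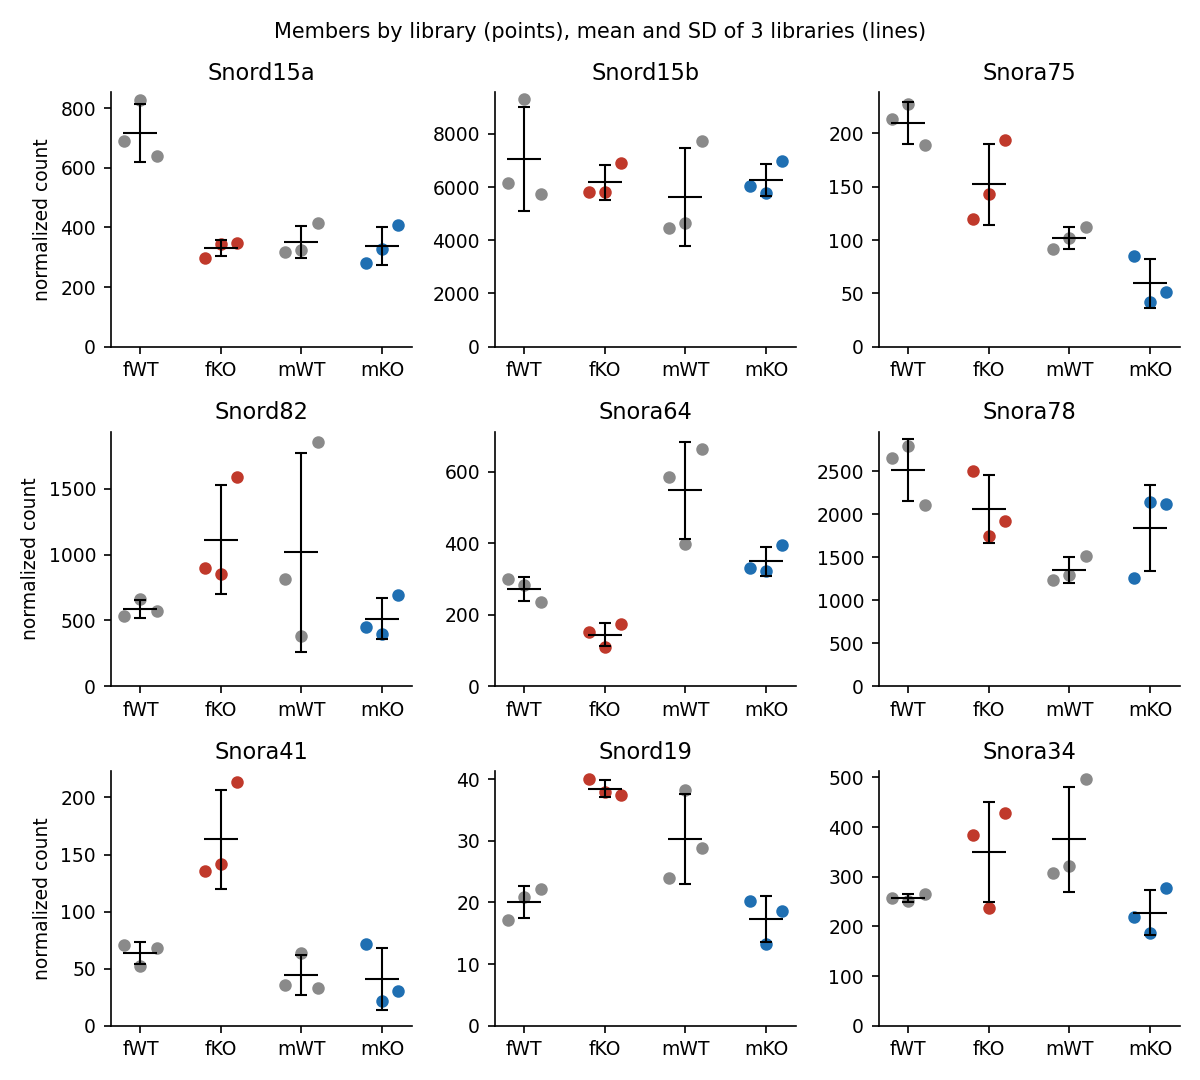
Normalized count of 9 members by genotype. Points are libraries A, B and C from left to right, horizontal lines are means and error bars are the SD of 3 libraries, and every vertical axis starts at 0. The 3 fWT points of Snord15a lie between 639 and 827 and all other points of that panel between 279 and 414, while Snord15b overlaps across genotypes.

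The members that rose most in females with a mean of at least 10 were Snora41, Snord69, Snord45b, Snord19 and Snord82. Snora41 had 70.4, 52.7 and 67.8 in fWT and 136, 141 and 213 in fKO (log2 fold change 1.33, SE 0.17, adjusted p = 2.48e-06). Its host Eef1b2 did not pass the test (log2 fold change -0.041, SE 0.07, adjusted p = 0.644), and 65.1% of its windows were unique in mm9. In males Snora41 had 35.9, 64.1 and 33.1 in mWT and 71.4, 21.3 and 30.0 in mKO, which overlapped.

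Both C/D guides of Gnl3 rose in females. Snord19 had 17.1, 20.9 and 22.2 in fWT and 40.0, 37.9 and 37.4 in fKO (log2 fold change 0.91, SE 0.23, adjusted p = 0.0033). Snord69 had 5.03, 8.78 and 6.67 in fWT and 21.2, 16.8 and 15.2 in fKO, few reads in each (log2 fold change 1.27, SE 0.34, adjusted p = 0.00442). Gnl3 itself rose less (log2 fold change 0.45, adjusted p = 1.88e-06). Snord45b had 24.1, 23.1 and 13.3 in fWT and 36.8, 35.4 and 41.4 in fKO (log2 fold change 0.92, SE 0.26, adjusted p = 0.00732), and its host Rabggtb, a gene for a subunit of a geranylgeranyl transferase, also rose (log2 fold change 0.42, adjusted p = 3.31e-06). For all 3 of these guides, fWT and fKO libraries did not overlap. With centring on the members the calls of Snord19 and Snord45b were lost (adjusted p = 0.0966 and 0.0958), and that of Snord45b was lost with no filter. Within a library, log2 of Snord19 over Snord69 was 1.58 ± 0.29 in fWT and 1.13 ± 0.20 in fKO (SD, n = 3), which overlapped (exact permutation p = 0.2). It was 1.58 ± 0.40 in mWT and 0.60 ± 0.40 in mKO, lower without overlap (exact permutation p = 0.1, adjusted p = 0.16).

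Scarna3b (log2 fold change -1.80, adjusted p = 0.00547) and Snord71 (-1.32, adjusted p = 0.0168) fell by more than any other called member but had mean normalized counts below 10. Among called members with a mean of at least 10, those that fell most were Snord15a, Snord37, Snora64, Scarna17 and Snora75. Snord37, from the elongation factor gene Eef2, had 25.1, 42.8 and 35.6 in fWT and 19.6, 22.7 and 10.1 in fKO (log2 fold change -0.98, SE 0.31, adjusted p = 0.0134). Eef2 had deposited means of 36712 in fWT and 27593 in fKO. Scarna17 had 16.1, 28.5 and 22.2 in fWT and 15.7, 8.42 and 13.1 in fKO (log2 fold change -0.80, SE 0.33, adjusted p = 0.0497), with 30.0% of its windows unique. The call of Snord37 was lost without fWT B or fKO C and that of Scarna17 without fWT B, fWT C, fKO B or fKO C, with adjusted p of up to 0.084 and 0.193. The abundant Scarna13 had 1078, 1189 and 1011 in fWT and 968, 619 and 1011 in fKO (log2 fold change -0.37, SE 0.13, adjusted p = 0.0214), a call lost without fWT A, fWT B or fKO B (adjusted p up to 0.135). Snord17 (log2 fold change 0.29, adjusted p = 0.0168), Snord22 (-0.42, adjusted p = 0.0113) and Snora78 were called in females with small changes, lost for Snord17 without fWT A, fWT C or fKO C (adjusted p up to 0.19) and for Snord22 without fWT B or fKO B (up to 0.108). The calls of Scarna13, Scarna17, Snord17, Snord22 and Snora78 were also lost with no filter and with centring on the members, and that of Snord37 with no filter (adjusted p up to 0.682, for Snord17). A pseudocount of 0.1 also lost the calls of Scarna17 and Snora78, and scaling to the total of recovered reads lost that of Snord17. By contrast, the other most abundant members of each class, Snord68, Snord83b, Snora17, Snora44, Snora70, Snora81, Scarna3a, Scarna6, Scarna8 and Scarna9, did not pass, with log2 fold changes from -0.43 (Snora44) to 0.27 (Snord68).

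Snora44, the most abundant H/ACA RNA, illustrates the spread between libraries. It had 4812, 12240.1 and 4414 in fWT and 3747, 3189 and 8959 in fKO, so that one library of each female genotype exceeded its fellows by a wide margin. In males it had 4297, 4391 and 4912 in mWT and 3735, 5846 and 2726 in mKO, which overlapped. Neither sex passed the test (log2 fold change -0.43, adjusted p = 0.298 in females and -0.21, adjusted p = 0.583 in males).

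In males no member passed the test. Of 104 members tested by limma, none rose and none fell at an adjusted p under 0.05, where 4.21% of all 21872 genes rose and 3.59% fell, 7.8% in all. At an unadjusted p under 0.05, 13 members (12.5%) were lower in mKO and none higher, where 13.7% of all genes were lower and 11% higher at that threshold, and limma voom also called none of the members. The libraries of mWT and mKO did not overlap for 9 members, all lower in mKO, and 13.9% of all genes were lower without overlap (12.7% higher). These 9 were Snora2b, Snora28, Snora30, Snora34, Snora47, Snora64, Snora75, Snord4a and Snord19. The log2 fold change was negative for 78 of the 104, with medians of -0.49 for Snora, -0.27 for Snord and -0.051 for Scarna, against -0.16 over all genes and 0.00080 over genes with a mean of at least 10. The Snord median turned to 0.015 and the Scarna median to 0.22 when libraries were centred on the members, a scaling that moved the median of genes with a mean of at least 10 to 0.31. Without mWT B and mKO A, 2 members were higher and 15 lower, a choice made after the data had been seen. That fit called 17.7% of all genes higher and 25.3% lower, so the members' share (1.92% and 14.4%) was below that of all genes. Leaving out mWT B alone or mKO A alone gave 3 and 4 member calls, where 21.5% and 19.8% of all genes were called.

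The sexes differed in the change of 4 members. Of 105 members tested, 1 had a higher and 3 a lower change in males than in females, where 10.6% and 10.7% of all 22014 genes did, 21.2% in all. The count was 11 without mWT B, 12 without mKO A and 2 without fKO C, where 33.3%, 29.9% and 16.2% of all genes were called. Snord15a is described above. Snord19 rose in females, and in males had 23.9, 38.3 and 28.7 in mWT and 20.3, 13.2 and 18.6 in mKO, lower without overlap (log2 fold change -0.77, SE 0.37, adjusted p = 0.234). The difference, males minus females, was -1.68 (SE 0.39, adjusted p = 0.00793).

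Snora34, from Kansl2, had 257, 250.3 and 266 in fWT, 384, 237 and 428 in fKO, 308, 322 and 497 in mWT and 218, 188 and 277 in mKO. Knockout and control overlapped in females and not in males, and the difference between the sexes was -1.10 (SE 0.31, adjusted p = 0.0222). Snora47, from Zbed3, had 20.1, 34.0 and 20.0 in fWT, 33.7, 22.7 and 42.4 in fKO, 36.9, 26.9 and 35.9 in mWT and 13.8, 17.2 and 8.27 in mKO. Its change did not pass in either sex (log2 fold change 0.40, SE 0.28, adjusted p = 0.269 in females and log2 fold change -1.32, SE 0.40, adjusted p = 0.0779 in males), and the difference between the sexes was -1.72 (SE 0.50, adjusted p = 0.0237). Its host Zbed3 rose in females (log2 fold change 0.72, adjusted p = 2.27e-06) and fell in males (-0.65, adjusted p = 0.0364). Kansl2 did not pass the test in either sex (log2 fold change 0.059, adjusted p = 0.412 in females and -0.034, adjusted p = 0.858 in males). The rise of Snora34 in females (log2 fold change 0.40, SE 0.15, adjusted p = 0.0313) was lost with no filter and with centring on the members (adjusted p = 0.452). It was also lost with a pseudocount of 0.1, with scaling to the total of recovered reads and on leaving out any library but fKO B (adjusted p up to 0.282). The call of Snora34 for the sex difference was lost with no filter. It was also lost without fWT B, fKO A, fKO C, mWT C or mKO B (adjusted p up to 0.0645). That of Snora47 was lost without fWT A, fWT C, fKO A, fKO C, mWT A, mWT C or mKO C (up to 0.0701). Centring on the members left Snord15a alone past the threshold (adjusted p = 0.0456).

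Between the controls, 3 members were higher in fWT than in mWT (Snord15a, Snora75 and Snora78) and 1 was lower (Snora64), where 9.7% and 11.8% of all genes were, 21.5% in all. Without mWT C, 11 were higher and 1 lower, beside 6.75% and 7.49% of all genes. Centring on the members left Snora64 alone past the threshold (adjusted p = 0.0377). The 3 members on the X chromosome with reads did not pass the test. Snora70, within Rpl10, had 732, 990.4 and 857 in fWT and 418, 604 and 960.0 in mWT (adjusted p = 0.211). Snora69, within Rpl39, had 142, 121 and 120.1 in fWT and 103, 71.3 and 219.9 in mWT (adjusted p = 0.814), and Snord61, within Rbmx, had 10.1, 12.1 and 13.3 in fWT and 10.97, 7.24 and 17.2 in mWT (adjusted p = 0.933). Each of these pairs overlapped. These X-linked members were chosen by their chromosome.

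The change of a guide RNA was set beside that of its host gene for 59 members with a mean of at least 10 and 44 hosts. The points share libraries, and members of one host share its value, so the relation is a description. Members annotated in host exons are included, among them Snord22, Snora44, Snora17, Snord1b and Snord1c, which share bases with their host's exons. How reads were assigned between such a guide and its host was not tested. Across members, Spearman's rho between the log2 fold changes was 0.08 (Pearson's r 0.13) in females and 0.28 (0.33) in males. Of 14 members called in females, the host had the same sign for 8, passed the test in the same direction for 7 and passed in the opposite direction for 3. The median absolute log2 fold change was 0.25 for members and 0.23 for hosts in females, and 0.36 and 0.20 in males. Snord22 illustrates an opposite pair, since it fell while its host Snhg1 rose (log2 fold change 0.39, adjusted p = 1.81e-05). Snhg12 rose (0.62, adjusted p = 5.3e-06), whereas Snora16a of the same gene fell (-0.20, adjusted p = 0.0489) and Snora44 did not pass. The host of Snord1b and Snord1c, 1810032O08Rik, rose (0.88, adjusted p = 4.01e-08) together with Snord1b (0.64, adjusted p = 0.0486) and Snord1c (0.67, adjusted p = 0.0288), whose sequences are largely repeated elsewhere in the case of Snord1c. Snhg7 rose (0.58, adjusted p = 2.77e-05) beside Snora17, which did not pass (0.23, adjusted p = 0.108).

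**Figure D5:**
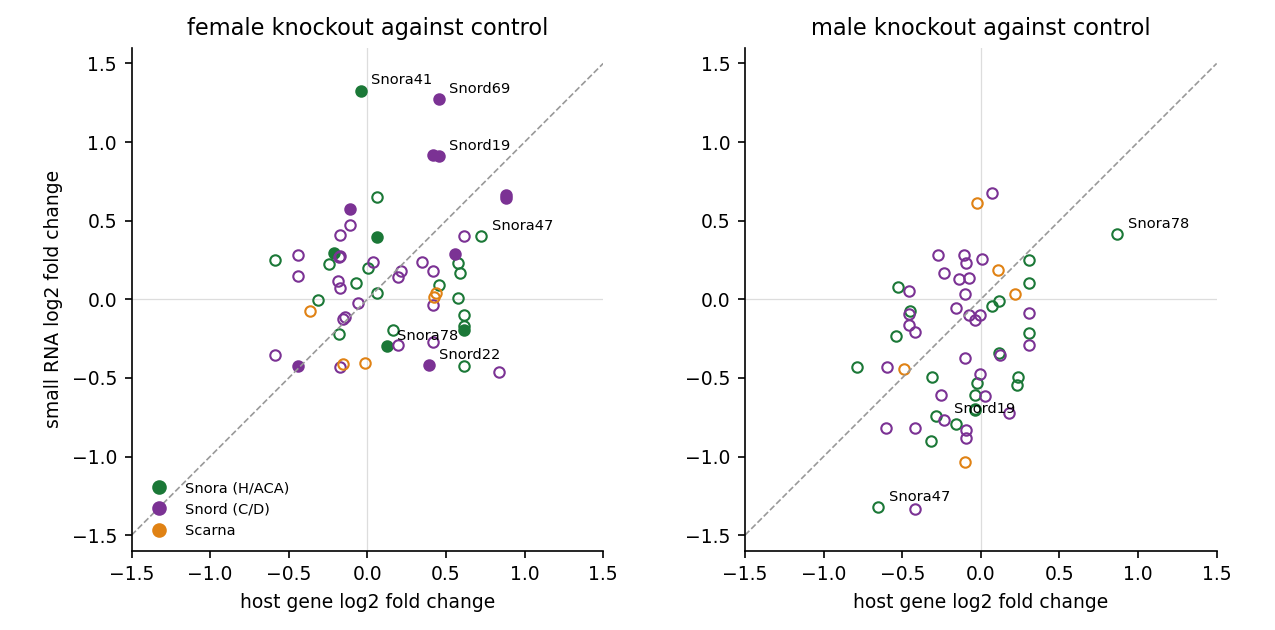
log2 fold change of the guide RNA (vertical axis) against that of its host gene (horizontal axis) in females and males, for 59 members with a mean of at least 10. Circles are coloured by class and filled where the member had an adjusted p under 0.05, and the dashed line marks equal change. Points do not follow the line in females, where Snora41 lies at 1.33 above a host at -0.041.

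The hosts of the remaining abundant members changed as follows in females. Atg16l1, an autophagy gene that holds Scarna6, rose (log2 fold change 0.44, adjusted p = 5.49e-05), as did Haus6, an augmin subunit gene that holds Scarna8 (0.42, adjusted p = 1.5e-05), and Snx5, a sorting nexin gene that holds Snord17 (0.56, adjusted p = 1.27e-07). The host of Scarna9, 5830418K08Rik, fell (-0.37, adjusted p = 0.000125), and so did Eif4a2, a translation initiation factor gene that holds Snora81 (-0.59, adjusted p = 2.91e-08). Smaller falls were seen for Rfwd2, which holds Scarna3a (-0.15, adjusted p = 0.0397), Rpl10 (-0.18, adjusted p = 0.0367) and Rpl13, which holds Snord68 (-0.18, adjusted p = 0.0068). In males Rpl13 (-0.60, adjusted p = 0.0157) and Rpl10 (-0.53, adjusted p = 0.0442) fell, Snhg9 rose (0.87, adjusted p = 0.0219), and none of Atg16l1, Haus6, Snx5, 5830418K08Rik, Eif4a2 and Rfwd2 passed. Rps2 and Rpl3, hosts of Snora64 and Snord83b, had deposited means of 23074 and 23291 in fWT and 19489.8 and 17839.7 in fKO, above the range recovered.

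The genes for the proteins that bind, assemble and mature these RNAs rose in larger number than they fell in females. Of 40 such genes in 5 lists, 27 rose, 2 fell and 36 had a positive log2 fold change, with a median of 0.27. Of all genes, 25.4% rose and 24.7% fell, with a median of 0.0037. With only genes of a mean of at least 10 tested, 33.4% rose and 32.5% fell, beside 28 and 2 of the 40. Centred on the guide RNAs, which shifts all genes, 4 of the 40 rose, none fell and their median was 0.17, beside 9.13% and 14.1% of all genes that rose and fell. Among the C/D core proteins, Nop58 (log2 fold change 0.42, adjusted p = 1.68e-05), Nhp2l1 (0.41, adjusted p = 1.17e-05) and Nop56 (0.20, adjusted p = 0.00923) rose, and the methyltransferase gene Fbl did not pass (0.10, adjusted p = 0.114). Among the H/ACA core proteins, the pseudouridine synthase gene Dkc1 (0.64, adjusted p = 1.52e-06), Gar1 (0.26, adjusted p = 0.00195) and Nhp2 (0.20, adjusted p = 0.00365) rose, and Nop10 fell (-0.26, adjusted p = 0.0122).

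Among 11 assembly factors, 7 rose and 1 fell, beside 25.4% and 24.7% of all genes. Ruvbl1, an AAA ATPase gene, rose (log2 fold change 0.54, adjusted p = 1.62e-07) and its partner Ruvbl2 fell (-0.27, adjusted p = 0.000692). The others that rose were Znhit3 (0.55, adjusted p = 0.000163), Pih1d1 (0.50, adjusted p = 0.000555), Nolc1 (0.49, adjusted p = 9.61e-07), Shq1 (0.47, adjusted p = 0.000133), Znhit6 (0.38, adjusted p = 0.000406) and Naf1 (0.31, adjusted p = 0.000141), an H/ACA assembly factor. Nufip1, Rpap3 and Tcof1 did not pass.

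Among 11 Cajal body and cap factors, 7 rose and none fell, beside 25.4% and 24.7% of all genes. The largest change was that of Ddx20, a helicase of the SMN complex (log2 fold change 1.37, adjusted p = 3.09e-11), followed by Wrap53, which brings scaRNAs to Cajal bodies (0.93, adjusted p = 4.92e-07), and Smn1 (0.78, adjusted p = 5.94e-09). Gemin4 (0.55, adjusted p = 3.23e-06), the cap hypermethylase gene Tgs1 (0.48, adjusted p = 3.36e-06), the export adaptor gene Phax (0.47, adjusted p = 1.98e-05) and Gemin6 (0.26, adjusted p = 0.0276) also rose. Coil, which encodes the Cajal body protein coilin, Gemin2, Gemin5 and Gemin7 did not pass.

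Among 10 maturation and decay factors, 7 rose and none fell, beside 25.4% and 24.7% of all genes. Dbr1, which encodes the enzyme that opens intron lariats, rose most (log2 fold change 0.96, adjusted p = 7.71e-10), followed by Xrn2 (0.46, adjusted p = 4.84e-06), the exosome genes Exosc3 (0.45, adjusted p = 4.39e-06) and Exosc10 (0.27, adjusted p = 0.00299), Aqr (0.27, adjusted p = 0.000465), Dis3 (0.23, adjusted p = 0.00408) and Skiv2l2 (0.20, adjusted p = 0.00715). Exosc4, Papd5 and Parn did not pass. The guide RNAs themselves, with a median log2 fold change of 0.10 over the 105 tested, lay at 61 positive and 44 negative values.

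In males none of the 40 genes rose and 4 fell, namely Naf1 (log2 fold change -0.89, adjusted p = 0.012), Nhp2 (-0.71, adjusted p = 0.0156), Smn1 (-0.53, adjusted p = 0.0309) and Nop10 (-0.52, adjusted p = 0.0468). Of all genes, 4.21% rose and 3.59% fell. With only genes of a mean of at least 10 tested, 6.98% rose and 5.30% fell, beside 0 and 4 of the 40. None of the 40 was called without mWT A, mWT C, mKO B or mKO C, where 1.56% to 2.72% of all genes were. By contrast, 9 fell without mKO A, 2 rose and 4 fell without mWT B, and 5 rose and 11 fell without both mWT B and mKO A. Without mKO A 9.76% of all genes rose and 10.0% fell, without mWT B 6.57% and 14.9%, and without both 17.7% and 25.3%. Centred on the guide RNAs, none of the 40 was called in males and the median turned from -0.076 to 0.23, with 32 of 40 positive. With that centring 3.31% of all genes were called. The change in males minus that in females was below 0 past the threshold for 13 of the 40 and above 0 for none. Of all genes, 10.7% were below 0 and 10.6% above. With only genes of a mean of at least 10 tested, 15.9% were below 0 and 17.9% above, beside 15 and 0 of the 40. Among the 13 were 3 of the 4 H/ACA core genes, with differences of -1.06 for Dkc1 (adjusted p = 0.00257), -0.91 for Nhp2 (adjusted p = 0.000639) and -0.70 for Gar1 (adjusted p = 0.00303). None of the 4 C/D core genes was among them. Centred on the guide RNAs, none of the 40 passed for this difference and its median turned from -0.36 to 0.046. With that centring the share of all genes that passed for this difference went from 21.2% to 6.80%. The part of the scaling in these falls was not tested. Without mKO A, 20 of the 40 were below 0 past the threshold and 1 above, beside 15.5% and 14.4% of all genes.

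Of the non-coding host genes listed, 15 of 21 symbols were in the tables and 14 could be tested. In females 5 rose and 4 fell, where 25.4% and 24.7% of all genes did. Taf1d (log2 fold change 0.92, adjusted p = 9.43e-10), Snhg12, Snhg3 (0.59, adjusted p = 2.4e-05), Snhg7 and Snhg1 rose, and Snhg18 (-1.55, adjusted p = 8.47e-05), Snhg11 (-1.22, adjusted p = 1.53e-10), Snhg8 (-0.55, adjusted p = 7.76e-06) and Snhg6 (-0.48, adjusted p = 0.000481) fell. In males Snhg9 and Snhg6 (0.61, adjusted p = 0.0219) rose and Snhg11 (-0.82, adjusted p = 0.0359) and Snhg3 (-0.62, adjusted p = 0.0442) fell. Of all genes in males, 4.21% rose and 3.59% fell. Gas5, Snhg4, Snhg5 and Snhg10 passed in neither sex. Rian, an imprinted host of other C/D RNAs, had deposited means of 10696 in fWT and 3664 in fKO and was not tested.

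Marker genes of cell states also differed between the genotypes. The normalized counts of 7 endoderm markers summed to 430.4 to 480.3 in the fWT libraries and 3541 to 3699 in the fKO libraries, with 7 of 7 higher in fKO, and to 1761 to 2489 in mWT and 535 to 2363 in mKO, with 1 of 7 lower. The 8 naive stem cell markers summed to 965 to 998 in fWT, 3033 to 3193 in fKO, 1446 to 2588 in mWT and 4120.3 to 7365 in mKO, with 7 and 5 of 8 higher in the knockout of females and males. The 8 fibroblast markers, which include the collagen genes, summed to 2306 to 2362, 777 to 833, 647 to 881 and 4288 to 4866 in the same order, with 4 of 8 lower in fKO and 5 of 8 higher in mKO. The 8 EpiLC markers were present in all libraries, at sums of 13993 to 14418, 20619 to 21347, 15552 to 24152 and 13012 to 17231 in the same order. Of these 8, 4 rose and 3 fell in fKO and 3 fell in mKO, and 6 of 8 had a lower change in males than in females with 1 higher. Of all genes, 25.4% rose and 24.7% fell in fKO, and 4.21% rose and 3.59% fell in mKO. The change in males was lower for 10.7% of all genes and higher for 10.6%. No marker was at 0 in all libraries of a genotype. The part of these cell states in the changes of the guide RNAs and their proteins was not tested.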

How the data were processed

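RNA was sequenced from 12 EpiLC libraries, 3 for each of 4 genotypes. As described by the authors, ribosomal RNA was depleted, strand-specific libraries were read as single 50-base reads, and TopHat2 2.1.0 aligned them to mm9 with at most 1 mismatch, keeping uniquely mapped reads. The submitters' processing notes also name Bowtie2 2.2.6.0, Cuffdiff and DESeq. The annotation used for counting is not given in the sources used here. The deposited tables, 1 per sex, hold a signal, the mean normalized count per gene and genotype that the authors averaged over 3 libraries. They also hold the authors' own fold change, log2 fold change, p-value and adjusted p-value, as deposited, which were not used.

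The reads of each library were recovered by searching, for each gene, the whole-number reads whose scaled mean gives the deposited mean to its last printed digit. This search succeeded for 22808 genes in all 12 libraries, and genes with a mean above 10000 were left out. The recovered libraries carry no sample names. Members were selected by symbol. The members and the gene lists were chosen with earlier results of these data known. Differences were tested with limma 3.58.1 (R 4.3.3) with an intensity trend on log2(normalized count + 1), adjusted by Benjamini-Hochberg over all genes tested, with a threshold of 0.05. Fold changes on this scale understate the change of low genes. Single values were compared by exact permutation tests over libraries. The labels speak of independent lines, and p-values measure the spread between these libraries. Members were placed on mm9 with GENCODE vM1 by symbol. The named genes were the 5 most abundant members of each class, the 5 that rose and the 5 that fell most in each sex among called members with a mean of at least 10, all members called for the sex difference, their hosts, Kdm5c and the listed genes. Other members are named where counts or neighbours call for them, after their values were seen. The procedures were tested on simulated data. The simulated recovery of reads left out means as high as those of Snord15b and Snora44. The simulated limma test gave all genes a common spread, so it does not cover the wider spread of the members. Alternatives were another pseudocount (0.1), filters on low values, scaling to the total of recovered reads, limma voom, each library left out, and, chosen after the data had been seen, centring on the members and leaving out mWT B and mKO A.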

Additional observations from a re-analysis of the deposited data

Results flagged for a closer look

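The test of the difference between the sexes singled out 4 of 105 members (3.81%), where 21.2% of all genes passed. The change in males minus that in females was 1.05 for Snord15a, -1.10 for Snora34, -1.72 for Snora47 and -1.68 for Snord19 on the log2 scale (limma, adjusted p of 0.0029, 0.022, 0.024 and 0.0079). The Snord15a and Snord19 differences passed without any single one of the 12 libraries, and those of Snora34 and Snora47 did not. Centring on the members kept only the Snord15a difference (limma, adjusted p = 0.0456) and lost that of Snord19 (adjusted p = 0.318). Within a sex the change of Snora47 did not pass in females or males, while its host Zbed3 passed in both, and Kansl2, the host of Snora34, passed in neither. The part of cell state markers, which also differed between the sexes, was not tested.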

How the results depend on the processing

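No paired analysis was possible because the recovered libraries carry no replicate numbers. In females, with 31 members called (19 higher, 12 lower), no filter on low values gave 7 (5 higher, 2 lower) and centring on the members 8 (3 higher, 5 lower), and scaling to the total of recovered reads changed the split to 13 higher and 15 lower. Of all genes 50.1% were called, 36.4% with no filter and 23.2% with centring. Scaling to the total gave 22.1% of all genes higher and 27.8% lower. In males, where none was called, leaving out mWT B and mKO A together gave 17 (2 higher, 15 lower), beside 17.7% and 25.3% of all genes. Centring on the members left 1 call for the sex difference, with 0 lower, and 1 between the controls, with 0 higher. Of all genes it called 6.80% and 6.50%. Leaving out one library gave 20 to 36 calls in females (10 to 30 higher, 6 to 17 lower), lowest without fWT A, and 0 to 4 in males (0 to 1 higher, 0 to 3 lower), highest without mKO A. It gave 2 to 12 for the sex difference (1 to 3 higher, 1 to 10 lower), with 12 without mKO A, 11 without mWT B and 2 without fKO C, and 4 to 12 between the controls (3 to 11 higher, 1 to 3 lower), highest without mWT C. In these fits 45.5% to 47.0% of all genes were called in females and 1.56% to 21.5% in males. For the sex difference the share of all genes was 16.2% to 33.3%, and between the controls 13.2% to 37.8%. The causes were not tested. Among single named members, 1550 values across settings kept their side of the threshold, 68 lost and 29 gained it, and none that was called changed sign. The median fold changes of the 3 classes in each sex moved by less than 1 SD of the class between libraries of a genotype under every setting computed for them, which left out limma voom and no filter. That SD was wide, and the male Snord and Scarna medians went from negative to positive with centring on the members. No setting varied the depth or the rule of unique mapping.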
